A study of Mus musculus with 2 samples.

Results

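The genes described here are 9 genes used as labels of projection neurons in the upper layers of the neocortex: Cux1, Cux2, Rorb, Neurod6, Rasgrf2, Rspo1, Otof, Scnn1a and Slc30a3. They were taken by gene name from the alignment-free transcript tables and joined by gene identifier to the other tables, so they are 9 of the 55536 annotated genes measured, and each name matched 1 gene. All 9 are protein-coding. Their 57 annotated transcripts were measured in every transcript table.

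The study profiled total RNA, with spike-in RNAs added to 300 ng of input, from 2 libraries of left cerebral cortex. Both were made from female B6CASTF1/J mice, a first-generation cross of C57BL/6J with the wild-derived CAST/EiJ strain, at an age of 18 to 20 months, and no treatment is named in the labels. They form 1 group, so there is no contrast, no test and no p-value, and values are given per library and as mean ± SD (n = 2). The labels number the libraries as biological replicates 1 and 2 but tie both to 1 donor entry, so the spread between them may be technical.

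The upper layers, layers 2 to 4, hold the neurons that connect cortical areas with each other and, in layer 4, the neurons that receive input from the thalamus. Cux1 and Cux2 are the classical transcription factors of these layers, where they act on dendrite branching and spine formation. Rorb, an orphan nuclear receptor, and Scnn1a label layer 4, Rasgrf2 and Otof are used as labels of layers 2 and 3, and Rspo1 as a label of layer 4 in sensory cortex. Neurod6 and Slc30a3 are also made by deep-layer and hippocampal projection neurons and are not confined to the upper layers. In bulk tissue, fewer cells of a type and less RNA per cell cannot be told apart.

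The Cux1 locus makes 2 kinds of product that share their N-terminal coding exons, and the values below turn on where they part. The long products carry the cut repeats and homeodomain with which CUX1 binds DNA. The short product, known as CASP, skips those exons, ends in distal exons that encode a transmembrane segment, and is a Golgi membrane protein. In the GENCODE M21 annotation (mm10, minus strand) the last exon common to both was exon 14 of Cux1-211, at chr5:136314307-136314403. After it, Cux1-211 continued into 9 distal exons within chr5:136248135-136258040, and the long forms into exons within chr5:136266415-136313314, 10 of them in Cux1-201. The junctions are shown because reads across them separate the 2 kinds of product. Lower case marks the last 30 bases of the shared exon (chr5:136314307-136314336) and capitals the first 30 bases of the exon that follows. In the order printed, the capitals lie at chr5:136258011-136258040, chr5:136312979-136313008 and chr5:136313285-136313314.
Cux1-211, short class: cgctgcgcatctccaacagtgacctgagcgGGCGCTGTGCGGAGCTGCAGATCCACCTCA
Cux1-201, long class: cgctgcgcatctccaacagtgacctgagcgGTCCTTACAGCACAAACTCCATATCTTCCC
Cux1-206, long class: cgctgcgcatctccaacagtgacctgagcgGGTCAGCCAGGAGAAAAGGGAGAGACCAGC

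Gene-level abundance is given first, in TPM (a level per transcript length, on a scale with the same total in each library), from the alignment-based gene table. All 9 genes reached 1 TPM in both libraries, as did 12844 of 22015 nuclear protein-coding genes (58.3%). The median of the 9 was 26.0 ± 2.94 TPM, beside a median of 15.8 TPM for the protein-coding genes that reached 1 TPM. Scnn1a was the lowest and Rasgrf2 the highest, at 1.39 ± 0.226 and 106 ± 1.15 TPM.

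**Figure D1:**
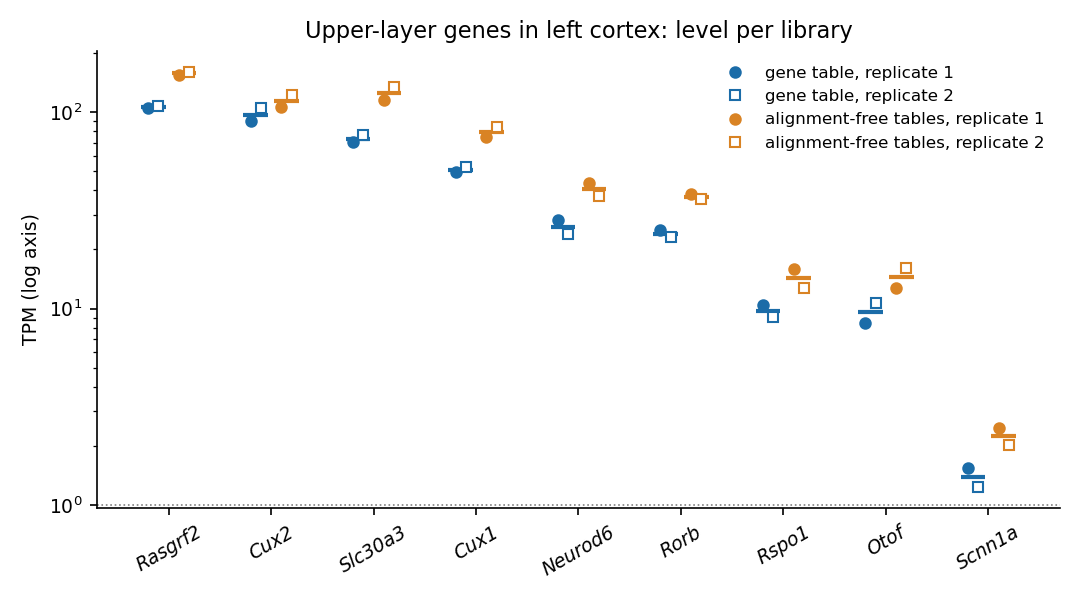
TPM of each gene (log axis) in replicate 1 (circles) and replicate 2 (squares), from the gene table (blue) and the alignment-free tables summed to genes (orange); bars are means of the 2 libraries and the dotted line marks 1 TPM. In the gene table the means run from Rasgrf2 at 106 TPM to Scnn1a at 1.39 TPM, and the alignment-free values are higher for each gene, with Slc30a3 above Cux2.

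Among the transcription factors, Cux2 (chr5:121856366-122050102, minus strand) had 89.7 TPM in replicate 1 against 105 TPM in replicate 2, from 6288 and 5563 expected counts. Cux1 (chr5:136248135-136567490, minus strand) had 49.5 TPM in replicate 1 against 52.4 TPM in replicate 2, from 5192 and 4275 counts. Cux2 lay above Cux1 in both libraries, and their values did not overlap. Neurod6, a bHLH factor of differentiating and mature excitatory neurons (chr6:55677822-55681263, minus strand), had 28.1 TPM in replicate 1 against 23.9 TPM in replicate 2. Rorb (chr19:18930605-19111196, minus strand) had 25.0 TPM in replicate 1 against 23.0 TPM in replicate 2. The values of Neurod6 and Rorb overlapped, so their order is not resolved.

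Rasgrf2 and Rspo1 are signalling genes. Rasgrf2 (chr13:91880400-92131656, minus strand), a calcium-responsive exchange factor that activates Ras and Rac, had 106 TPM in replicate 1 against 107 TPM in replicate 2, from 8003 and 6112 counts. Rspo1 (chr4:124986430-125009099, plus strand), a secreted protein that strengthens Wnt signalling, had 10.4 TPM in replicate 1 against 9.03 TPM in replicate 2, from 388 and 230 counts. The level of Rasgrf2 lay above that of Cux2 in both libraries, although only just, since the lower Rasgrf2 value was 106 TPM and the higher Cux2 value 105 TPM.

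The other 3 genes encode membrane proteins. Slc30a3 (chr5:31086106-31108237, minus strand), the transporter that loads zinc into synaptic vesicles, had 70.6 TPM in replicate 1 against 76.1 TPM in replicate 2. Otof (chr5:30367062-30461932, minus strand), a calcium-binding ferlin known best from hair-cell synapses, had 8.47 TPM in replicate 1 against 10.7 TPM in replicate 2. Scnn1a (chr6:125320659-125344943, plus strand), the alpha subunit of the epithelial sodium channel, had 1.55 TPM in replicate 1 against 1.23 TPM in replicate 2, from 109 and 64 counts. The values of Otof and Rspo1 overlapped. By mean TPM, 796 was the rank of Rasgrf2 among the 22015 protein-coding genes, 8365 that of Otof and 12617 that of Scnn1a. Otof and Slc30a3 lie 624.2 kb apart on chromosome 5. With Cux1 and Cux2 they make 4 of the 9 genes on a chromosome that holds 5.72% of protein-coding genes.

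The order of levels was Rasgrf2, Cux2, Slc30a3, Cux1, Neurod6, Rorb, Rspo1, Otof and Scnn1a. In the alignment-free tables Slc30a3, with 116 TPM in replicate 1 against 135 TPM in replicate 2, stood above Cux2, with 106 TPM against 123 TPM, in both libraries. There Otof, with 12.8 TPM in replicate 1 against 16.1 TPM in replicate 2, overlapped with Rspo1, with 15.8 and 12.7 TPM, so their order is not resolved in either kind of table. Gene-table TPM was lower than alignment-free TPM for all 9 genes. For Cux2 the ratio of gene-table to alignment-free TPM was 0.847 in replicate 1 and 0.850 in replicate 2, the highest of the 9 in both libraries. The other 8 genes ranged from 0.565 to 0.711, and the median over protein-coding genes was 0.625 in replicate 1 and 0.614 in replicate 2. The 2 kinds of table share reads, so their ratio shows the quantification and not the tissue. A posterior SD of 0 was listed for the count of each gene in each library, meaning that the quantifier shared none of their reads with other genes.

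Annotated fragments enter these levels. For Rasgrf2, 4 of 6 transcripts are annotated as open at an end, and they held 77.4% of its TPM in replicate 1 and 76.9% in replicate 2. The longest of them, Rasgrf2-205 with 5797 bases, had 41.6 TPM in replicate 1 against 42.6 TPM in replicate 2. The only form of Rasgrf2 with a complete coding region of 1188 codons, Rasgrf2-201, had 16.5 TPM in replicate 1 against 15.7 TPM in replicate 2. Because TPM adds over pieces of a transcript, the level was also computed as counts per kilobase of all annotated exon bases, scaled to the total of gene counts, which does not depend on how reads were divided among transcripts. On that scale Slc30a3 was highest, at 34.5 ± 1.54, above Rasgrf2 at 26.7 ± 0.0660 and Cux2 at 20.8 ± 2.10. On that scale Cux1 was the sixth of the 9, at 8.31 ± 0.421, with annotated exons that cover 20024 bases.

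Reads of Cux1 were divided among 14 annotated transcripts, and its gene-level TPM sums both kinds of product. The leading transcript was Cux1-211, a short form with 676 codons, in all 4 transcript tables. It had 21.7 TPM in replicate 1 against 20.3 TPM in replicate 2 in the alignment-based tables, or 43.9% and 38.8% of the gene, a mean of 41.3% ± 3.59 (SD, n = 2). In the alignment-free tables its share was 41.0% in replicate 1 and 34.5% in replicate 2. All forms with distal exons together made up 49.1% of Cux1 TPM in replicate 1 and 41.3% in replicate 2, and 44.9% and 37.0% in the alignment-free tables. Replicate 1 had the larger share of the short class in both kinds of table.

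Long forms with the homeodomain exons had 16.6 TPM in replicate 1 against 19.1 TPM in replicate 2, led by Cux1-201, with 1426 codons and 9.10 and 10.3 TPM. A further 14.2% of Cux1 TPM in replicate 1 and 16.6% in replicate 2 was assigned to Cux1-208. This transcript is a fragment of 805 bases, open at both ends. It stops at chr5:136313234, inside the first exon of Cux1-206 after the last shared exon (chr5:136312643-136313314). It was grouped with the long class for that exon alone and holds none of the later long-class exons. By expected counts, which are not divided by length, the long class led, with 67.3% of Cux1 counts in replicate 1 and 71.2% in replicate 2. The short class had 28.8% of counts in replicate 1 and 23.3% in replicate 2. Cux1-201 has 12862 bases and Cux1-211 has 2831, and TPM divides by length where counts do not.

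**Figure D2:**
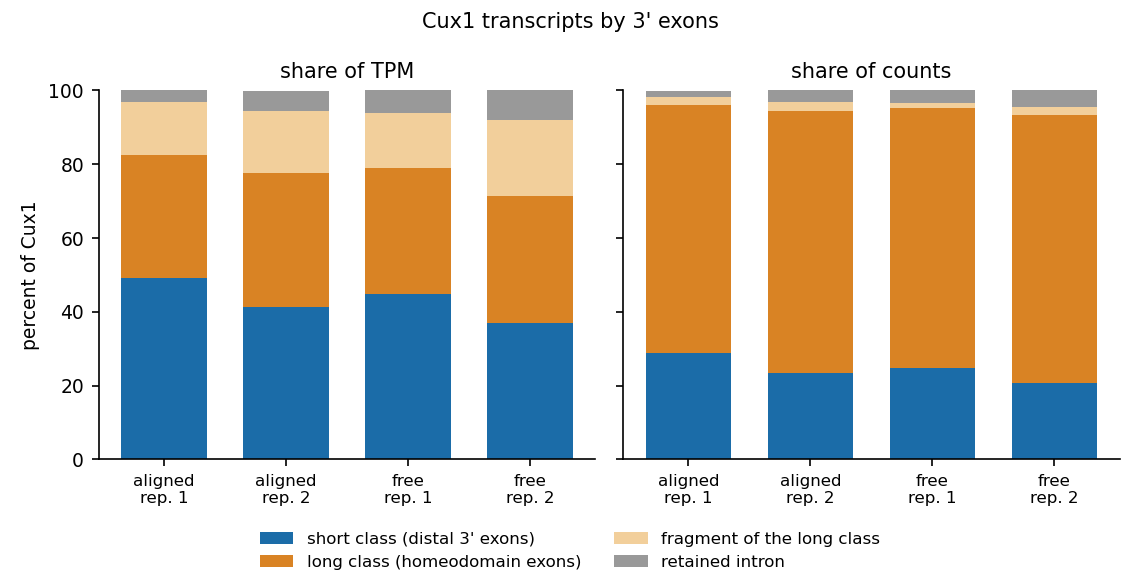
Share of Cux1 in percent by transcript class, as TPM (left) and as counts (right), for replicates 1 and 2 in the alignment-based (aligned) and alignment-free (free) transcript tables. The short class holds 49.1% and 41.3% of TPM in the alignment-based tables but 28.8% and 23.3% of counts. The fragment is Cux1-208, which reaches only the first long-class exon after the last shared exon.

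The leading transcript was the same in all 4 tables for 7 of the 9 genes, among them Neurod6, which has a single annotated transcript. Cux2 and Scnn1a differed between tables. In the alignment-based tables the leading form of Cux2 was Cux2-205, a fragment of 420 bases, with 18.7 TPM in replicate 1 against 23.7 TPM in replicate 2. The alignment-free tables gave that fragment 0 TPM in replicate 1 against 2.83 TPM in replicate 2, and were led by Cux2-201, with 37.8 and 46.8 TPM. The 3 Cux2 transcripts Cux2-201, Cux2-202 and Cux2-210 encode 1426 codons each and differ in where they start, and also in length, with 5113, 8784 and 4697 bases, and in where they end. Together, complete coding forms made up 86.6% of Cux2 counts in replicate 1 and 87.8% in replicate 2, and 94.8% and 95.7% in the alignment-free tables.

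By counts, both kinds of table gave like shares to the most upstream Cux2 start, and unlike shares to the others. Forms from that start, led by Cux2-202, held 53.3% of Cux2 counts in replicate 1 and 51.6% in replicate 2, and 51.4% and 50.1% in the alignment-free tables. Cux2-201 and Cux2-203, from the next start, held 5.34% of counts in replicate 1 and 9.02% in replicate 2, but 43.9% and 45.7% in the alignment-free tables. Cux2-210, which starts further downstream, held 28.4% in replicate 1 and 27.6% in replicate 2 in the alignment-based tables and had under 1 read in the alignment-free ones. By TPM, which divides by length, the upstream start held less, 21.6% in replicate 1 and 20.1% in replicate 2, and 29.9% and 23.6% in the alignment-free tables, where the next start held 35.7% and 38.8%. Cux2-202 also runs further at its 3′ end than Cux2-201 and Cux2-210, so its share of counts depends on that sequence as well as on the start. The 100 bases before both RefSeq start sites (GRCm38.p6, minus strand) are printed for the forms that begin at them. Cux2-202, which led the Cux2 counts in both kinds of table, begins at the upstream site. Cux2-201, which led Cux2 TPM in the alignment-free tables only, begins at the next site. Capitals mark a TATAAA.
Cux2-202 start, chr5:122049852-122049951: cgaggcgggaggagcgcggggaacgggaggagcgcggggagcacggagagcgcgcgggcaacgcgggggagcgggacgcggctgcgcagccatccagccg
Cux2-201 start, chr5:122047826-122047925: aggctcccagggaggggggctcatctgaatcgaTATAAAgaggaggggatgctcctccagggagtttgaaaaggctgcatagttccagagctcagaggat
The motif TATAAA was searched on both strands of RefSeq windows that run from 250 bases before to 50 bases after a start, and 13.6% of all 32851 windows hold it. The upstream window of Cux2 was 80.3% G and C with 48 CG pairs and held no TATAAA, and the downstream window was 56.7% G and C with 4 CG pairs. Over all windows the medians were 52.7% and 7 pairs. In the downstream window the motif began 67 bases before the start.

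Rorb also has 2 annotated starts, and most of its reads were assigned to the upstream one. Rorb-203, with 459 codons, starts there and had 21.3 TPM in replicate 1 against 22.0 TPM in replicate 2, from 4410 and 3405 counts. On the scale of the count ratio it differed by -0.01 (log2, replicate 1 over replicate 2). The 4 transcripts from the downstream start together had 227 counts in replicate 1 and 42.8 counts in replicate 2, a log2 ratio of 2.01, and 2.05 in the alignment-free tables. Of these, 201 counts in replicate 1 and 4.44 counts in replicate 2 were assigned to Rorb-202, a form with 385 codons. The 2 retained-intron transcripts of Rorb are also in this group and went the other way, with 25.6 counts in replicate 1 and 38.4 in replicate 2. Rorb-201, a form of 470 codons, was listed at 0 TPM in both libraries in the alignment-based tables. It has 8759 bases and Rorb-203 has 9293, and both end at the same base. Reads in sequence that they share were therefore divided between them by estimate. Both kinds of table put the downstream start as a whole higher in replicate 1, through Rorb-202. With 1 library on each side the difference has no replicate check. As background, the product of the upstream start is the form known from brain, and a form from the downstream start is known from retina and pineal gland.
Rorb-203 start, chr19:19111197-19111296: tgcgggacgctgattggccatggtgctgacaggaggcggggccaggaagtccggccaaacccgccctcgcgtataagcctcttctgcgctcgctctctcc
Rorb-201 and Rorb-202 start, chr19:19001118-19001217: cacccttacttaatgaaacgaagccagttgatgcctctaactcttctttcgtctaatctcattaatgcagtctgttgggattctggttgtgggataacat
These are the 100 bases before each RefSeq start on the minus strand, shown for the contrast between them. The upstream window was 63.7% G and C with 20 CG pairs, the downstream window 41.0% with 5 pairs, and neither held a TATAAA.

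The libraries were then compared gene by gene, as the log2 ratio of replicate 1 over replicate 2 in TMM-scaled counts. No gene of the 9 differed by more than 1.5-fold, beside 14.3% of all 18246 genes averaging at least 10 counts, and 2.42% of the 11608 protein-coding genes with a mean of 80 to 8000 counts, the range of these genes. Past a log2 ratio of 0.32 either way lay 3 of the 9, beside 27.7% of all tested genes and 11.7% of the protein-coding genes in that range. The median ratio of the 9 was 0.01. The median size of a difference was 0.20 for the 9, 0.17 for all tested genes and 0.13 for the protein-coding genes in that range.

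Rspo1, Scnn1a and Otof were these 3 genes, and each lay within 0.32 under some alternative, Otof in alignment-free counts and with no filter on low counts, and Rspo1 and Scnn1a in TPM, while Neurod6 lay past it in alignment-free counts. Rspo1 had a log2 ratio of 0.37, or 1.29-fold, with an exact 95% binomial interval of 1.10 to 1.53 that covers counting error only. Scnn1a had a ratio of 0.38, with an interval of 0.953-fold to 1.81-fold, so its difference was not detectable at its depth of 109 and 64 counts. Otof was lower in replicate 1, with a ratio of -0.35, or 0.786-fold, and an interval of 0.727 to 0.849. Neurod6 was also higher in replicate 1, at 1.21-fold with an interval of 1.10 to 1.32, and Cux2 lower, at 0.869-fold with an interval of 0.838 to 0.901. The log2 ratios of Rasgrf2, Rorb, Slc30a3 and Cux1 lay between -0.10 and 0.05.

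**Figure D3:**
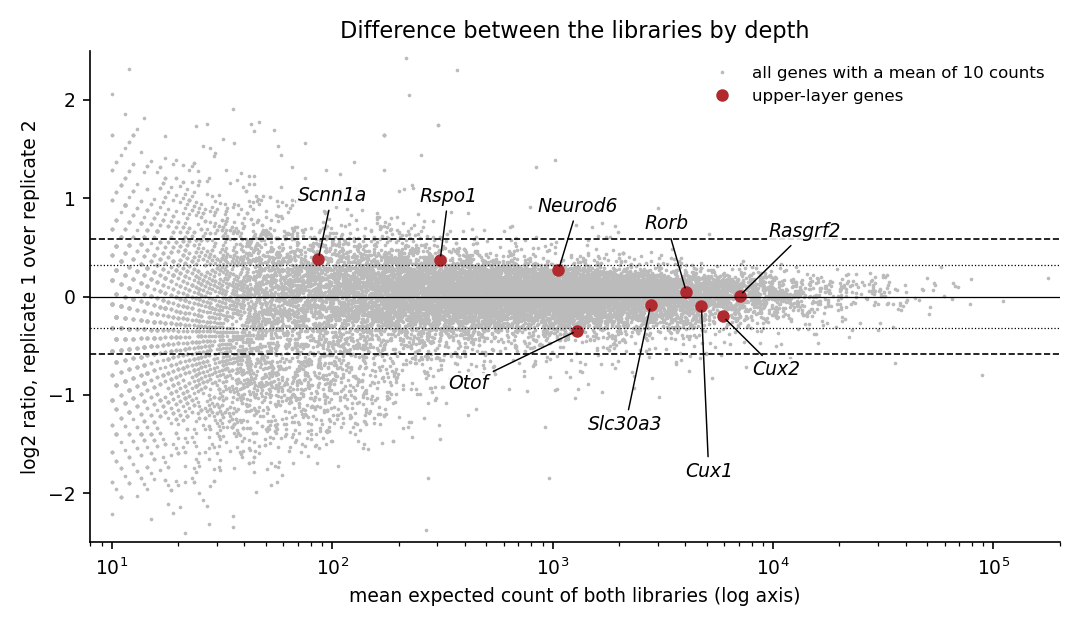
Log2 ratio of replicate 1 over replicate 2 against the mean expected count (log axis) for all genes averaging at least 10 counts (grey) and the 9 upper-layer genes (red); dashed lines mark 1.5-fold and dotted lines a log2 ratio of 0.32, and 57 of 18246 genes lie outside the plotted range of -2.5 to 2.5. The 9 genes lie within the dashed lines.

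Markers of some other cells lay on 1 side of 0, with few past 1.5-fold. All 7 interneuron markers were higher in replicate 1, with a median log2 ratio of 0.30, as were all 4 microglial markers (0.29), all 4 oligodendrocyte markers (0.33), all 3 endothelial markers (0.35) and all 4 striatal markers (0.30). Of these markers, only Cldn5 in the endothelial list passed 1.5-fold, and 56.4% of the protein-coding genes with a mean of 80 to 8000 counts were higher in replicate 1. Summed TPM of the interneuron list was 555 in replicate 1 and 478 in replicate 2. Medians near 0 were found for the 6 excitatory markers (0.04), the 4 astrocyte markers (0.02) and the 15 deep-layer genes (0.04). The ratios of Rspo1, Scnn1a and Neurod6 lay within the range of the interneuron markers, 0.07 to 0.50. They also lay within that of the excitatory markers, -0.07 to 0.42. The part of cell makeup in these ratios was not tested.

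For Otof the difference lay mainly in transcripts annotated as retained introns. Its 2 coding transcripts had 5.94 TPM in replicate 1 against 6.23 TPM in replicate 2, from 940 and 739 counts, a log2 ratio of -0.03. Its 3 retained-intron transcripts had 2.53 TPM in replicate 1 against 4.46 TPM in replicate 2, from 367 and 540 counts, a log2 ratio of -0.94. They made up 28.1% of Otof counts in replicate 1 and 42.2% in replicate 2, and 36.3% and 50.5% in the alignment-free tables. The longest, Otof-204 with 7419 bases, is of a length with the coding transcript Otof-201 of 7129 bases, so reads in shared exons were divided between them by estimate.

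Retained-intron transcripts of Cux1 and Rorb were also lower in replicate 1, with log2 ratios of -0.98 and -0.95, from 87.7 and 133 counts for Cux1 and 25.6 and 38.4 counts for Rorb. In the alignment-free tables these ratios were -0.50 for Cux1, -0.76 for Rorb and -0.77 for Otof. Retained-intron transcripts of Cux2 had a ratio of -0.06 in the alignment-based tables and were higher in replicate 1 in the alignment-free ones, at 0.35 from 159 and 101 counts. The other transcripts of these genes had log2 ratios of -0.08 for Cux1, 0.06 for Rorb and -0.21 for Cux2. Gene models A430110C17Rik and Gm38082, which lie inside Cux1 on its strand and belong to the annotation class awaiting experimental support (TEC), were lower in replicate 1 too, with 42 and 48 counts in replicate 1 and 93 and 123 counts in replicate 2.

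Over all genes, the direction was that of Otof, Cux1 and Rorb. Over all nuclear protein-coding genes, retained-intron transcripts held 3.89% of counts in replicate 1 and 5.24% in replicate 2, and 3.99% and 5.28% in the alignment-free tables. Of 6844 such genes with a mean of 80 to 8000 counts and a retained-intron transcript, 5563 (81.3%) had the larger share in replicate 2 and 1187 in replicate 1. Of 1345 TEC gene models with a mean of 10 counts, 94.3% were lower in replicate 1, with a median log2 ratio of -0.84. Whether unspliced RNA sets the Otof difference was not tested.

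**Figure D4:**
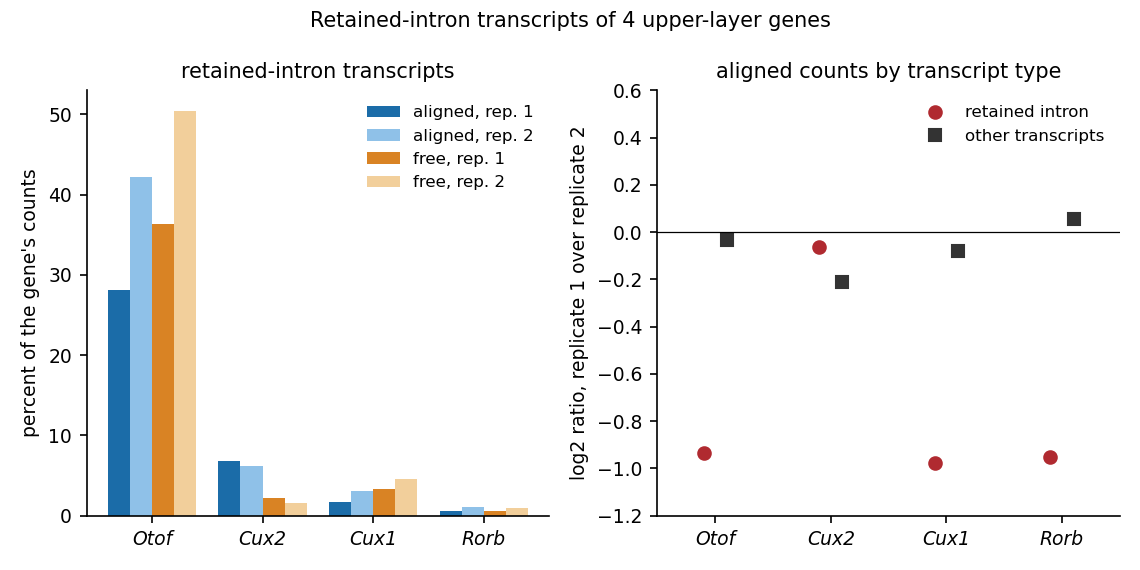
Left, percent of each gene's counts on retained-intron transcripts in the alignment-based (aligned) and alignment-free (free) tables, for replicates 1 and 2; right, log2 ratio of replicate 1 over replicate 2 in alignment-based counts for retained-intron (circles) and other transcripts (squares). In Otof the retained-intron ratio is -0.94 and that of the other transcripts -0.03.

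Relatives and partners of the 9 genes place their levels within each family. Of 6 CUT-domain genes listed, Cux2 was highest, Satb1 (54.0 ± 1.41 TPM) stood above Cux1 in both libraries, and Onecut1, Onecut2 and Onecut3 were below 1 TPM in both libraries. Among the exchange factors for Ras, Rasgrf2 stood below Rasgrp1 at 138 ± 4.56 TPM and Rasgrf1 at 126 ± 2.62 TPM and above all others, among them Sos1 and Sos2 at 14.7 ± 0.502 and 16.7 ± 1.70 TPM. Rora, a ROR receptor related to Rorb, was above it in both libraries, at 32.7 ± 2.57 TPM.

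Rspo1 was the highest of the 4 R-spondins, above Rspo2 (6.02 ± 0.502 TPM) and Rspo3 (4.83 ± 0.141 TPM), with Rspo4 at 0.0800 TPM in replicate 1 against 0 TPM in replicate 2. Of the receptors that bind R-spondins, Lgr4 led, at 11.0 ± 0.552 TPM, and of the ligases they act on, Znrf3 had 7.45 ± 0.0212 TPM and Rnf43 1.06 ± 0.148 TPM. The other subunits of the channel that Scnn1a forms were near 0. Scnn1b had 1 count in replicate 1 and 2 counts in replicate 2, and Scnn1g 4 counts and 1 count, within or next to the 3 counts that a count of 0 allows. Channels of the same superfamily that neurons use, Asic1 and Asic2, had 35.6 ± 4.62 and 28.2 ± 0.219 TPM.

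Otof was the highest of the 6 ferlins, above Myof (2.39 ± 0.156 TPM) and Dysf (2.10 ± 0.255 TPM), and the other 3 were below 1 TPM. Neurod6 overlapped with none of its relatives, lying below Neurod2 at 31.8 ± 0.856 TPM and above Neurod1 at 8.36 ± 0.127 TPM, while Neurod4 and the 3 neurogenins stayed below 1 TPM. Of the 10 genes listed from the Slc30 family, Slc30a3 and Slc30a9 (78.7 ± 3.05 TPM) were the highest. Slc30a9 lay above Slc30a3 in both libraries in the gene table. In the alignment-free tables Slc30a3 lay above Slc30a9 (110 and 107 TPM) in both libraries. Slc30a4 followed, with 21.6 TPM in replicate 1 against 20.4 TPM in replicate 2.

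**Figure D5:**
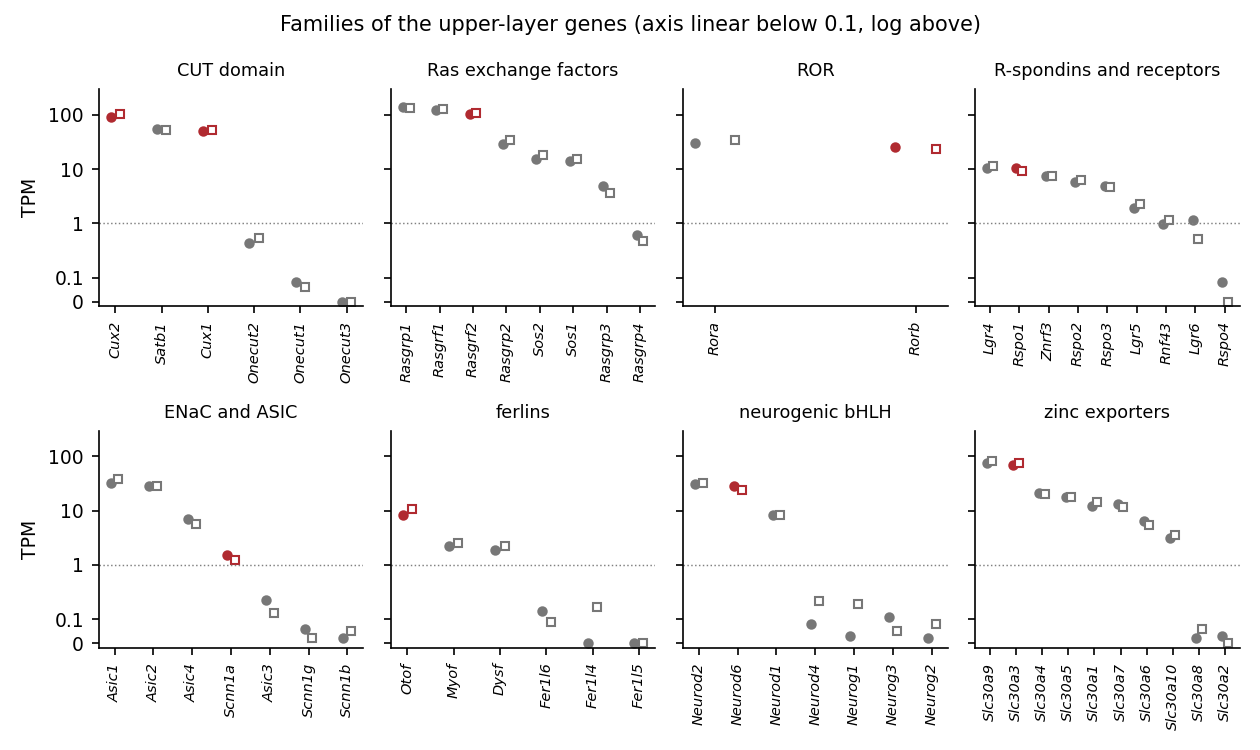
TPM from the gene table for each family of the upper-layer genes, ordered by mean within a panel, in replicate 1 (circles) and replicate 2 (squares), with the 9 genes in red and their relatives in grey. The axis is linear below 0.1 TPM and logarithmic above, and the dotted line marks 1 TPM; every red gene lies above it.

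Other genes of the upper layers had a lower median level. All 15 listed were at 1 TPM or more in each library. Their median was 12.2 ± 0.332 TPM, beside 26.0 ± 2.94 TPM for the 9, and the highest were Lamp5 (117 ± 14.8 TPM) and Calb1 (57.9 ± 1.61 TPM), which interneurons also make, and Plxnd1 (54.7 ± 2.74 TPM). Agmat was the only one of them past 1.5-fold, with a log2 ratio of -0.88 from 35 and 51 counts. All 15 deep-layer genes found were also at 1 TPM or more in each library, and their median was 16.5 ± 1.58 TPM and the highest was Tbr1 at 50.9 ± 1.47 TPM. Summed TPM of the 9 genes over that of the deep-layer genes was 1.41 in replicate 1 and 1.49 in replicate 2, and 1.19 and 1.30 in the alignment-free tables. These sums weigh different numbers of genes and rank no layer by its cells.

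The labelled tissue was checked against its markers. Of the 6 excitatory neuron genes, Camk2a was highest, at 1148 ± 55.8 TPM. Nrgn had 746 ± 10.5 TPM and the cortical vesicular glutamate transporter Slc17a7 had 552 ± 7.70 TPM. Lower levels were found for Nrn1 (134 ± 11.9 TPM), Neurod2 (31.8 ± 0.856 TPM) and Slc17a6 (13.8 ± 1.13 TPM). Markers of adjoining regions were low but present: summed TPM in replicates 1 and 2 was 26.0 and 30.2 for 4 hippocampal genes, 10.4 and 12.1 for 3 thalamic genes, and 63.9 and 56.9 for 4 striatal genes. Most of the hippocampal sum was Zbtb20, at 19.1 and 24.2 TPM, with Prox1 at 3.61 and 2.85 TPM and Fibcd1 at 3.17 and 3.05 TPM. Dsp, a hippocampal marker of dentate granule cells, was the lowest of the 4, at 0.0900 and 0.0300 TPM. Rorb is also made in thalamus and Slc30a3 and Neurod6 in hippocampus, and the part of adjoining tissue in their levels was not tested. Over all genes, expected counts came to 32357983 in replicate 1 and 24798683 in replicate 2. With 2 libraries of 1 group, no gene can be ranked by likeness of its pattern to these genes, and none was.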

How the data were processed

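For each library a gene table and a pair of transcript tables were read. Values refer to mm10 and GENCODE M21, and 1 transcript table was made without an alignment (alignment-free here), per the text deposited beside the tables. What aligned and quantified the reads was not given in the sources used here. The deposited expected counts (alignment-based tables) and estimated counts (alignment-free tables) are not normalized, per the file headers. The deposited TPM values are per effective transcript length and have the same total in each library, per the file headers. Isoform shares in percent were recomputed from TPM and counts and not taken from the deposited percent column. Reads from CAST/EiJ alleles were not analysed apart.

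Alignment-free values were summed to genes. Counts were rounded and scaled by TMM in edgeR 4.0.16 (R 4.3.3), with a prior count of 2 and genes averaging at least 10 counts, and the ratio code was tested on simulated data. Ratios of transcript groups used the same scale with 0.5 added to each count. Tables were joined in Python with pandas, and DESeq2 1.42.0 gave an alternative scaling. Total expected counts, spike-ins included, were 32504959 in replicate 1 and 24899781 in replicate 2, and 3 counts, the limit a count of 0 allows, came to 0.0927 and 0.121 CPM. Intervals and limits cover counting error only, and PCR copies are not independent molecules.

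The 9 genes, the families and the marker lists were chosen with earlier results of these data known. Genes named are the 9, relatives in a fixed family list, the 3 highest of other lists where space allowed, and those below 1 TPM where a count refers to them. Some listed relatives and upper-layer genes are not reported here and were left out of the counts and medians of their lists. Promoters were found for 7 of the 9 genes (10 windows) and credited to RefSeq, and junction bases to GENCODE. Alternatives were the other table, other scalings, thresholds and filters, and leaving out each replicate. Exon length over all annotated exons and the grouping of Cux1 transcripts by 3' exons were added after seeing the data.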

Additional observations from a re-analysis of the deposited data

How the results depend on the processing

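All 9 genes reached 1 TPM in the alignment-free tables, by posterior mean, when rescaled over nuclear protein-coding genes and with either library left out, and all reached 0.5 TPM; 8 reached 5 TPM, all but Scnn1a, which was at 0.72 per kilobase of all annotated exons. Their median of 26.0 TPM became 40.7 TPM in the alignment-free tables, 59.0 when rescaled over nuclear protein-coding genes and 12.7 per kilobase of all annotated exons, where scale and length differ by construction; it was 25.2 with posterior mean TPM, and 23.9 to 28.1 with a replicate left out. No gene passed 1.5-fold under any scaling, filter, prior count or table tried, nor 2-fold; 3 passed the smaller fold, a log2 ratio of 0.32, with Neurod6 in place of Otof in the alignment-free counts, only Rspo1 and Scnn1a with no filter, and only Otof in TPM. The median log2 ratio of 0.01 ranged from -0.02 (TPM) to 0.07 (alignment-free counts). Cux1-211 held 41.3% of Cux1 TPM, and 38.8% to 43.9% with a replicate left out, 37.8% in the alignment-free tables, 38.2% by posterior mean, 23.8% of expected counts, where length is not divided out, and 45.2% when all forms with distal exons were grouped. Levels of the single genes moved beyond the spread of the libraries for all 9 under the 2 other scales and the alignment-free tables, and for 2 by posterior mean. A ratio cannot be computed with a library left out. No paired analysis was possible because there is 1 group. Depth limits Scnn1a, whose counts of 109 and 64 do not resolve its difference.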
